A study of Saccharomyces cerevisiae with 9 samples.

Results

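The genes of heme synthesis and breakdown were followed in 3 strains of the yeast Saccharomyces cerevisiae by expression array. They were chosen by name: HEM1, HEM2, HEM3, HEM4, HEM12, HEM13, HEM14 and HEM15, which encode the 8 enzymes of heme synthesis, and HMX1, which encodes heme oxygenase. Each of the 9 genes had 1 probe set of its own, so 9 of the 5449 S. cerevisiae genes measured were members. REF is the reference strain. D12 expresses a D12-desaturase gene from the fungus Mucor rouxii, and D126 expresses the D12- and D6-desaturase genes from there together. A D12-desaturase makes linoleic acid from oleic acid, and a D6-desaturase makes gamma-linolenic acid from linoleic acid. All 3 strains were grown in chemostats limited by glucose (dilution rate 0.1 per h) for no fewer than 5 residence times, and each was measured on 3 arrays. Host genotype, vectors, promoters, the number of clones and whether arrays of a strain came from separate cultures were not stated in the labels. The p-values therefore only set a difference between strains against the spread among arrays within strains, and that spread may be technical.

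Heme is an iron porphyrin. In yeast its synthesis starts in the mitochondrion, continues in the cytosol and ends in the mitochondrion again. Heme is the cofactor of cytochromes, catalases and cytochrome P450 enzymes. Fatty acid desaturation depends on it through cytochrome b5 or a cytochrome b5 domain, which passes electrons to the desaturase. Mutants that cannot make heme need unsaturated fatty acids and sterol in the medium. In the R64 gene table HEM1, HEM2 and HEM3 still carry the older names OLE3, OLE4 and OLE2, given to such mutants. Heme also reports oxygen to the yeast cell, since HEM13 and HEM14 encode steps that consume oxygen and the transcription factor Hap1 is activated by heme.

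Of the 9 genes, HEM13 and HEM14 fell in D126 and none rose. These genes encode successive steps, coproporphyrinogen III oxidase and protoporphyrinogen oxidase. HEM13 fell by 0.26 (SE 0.05) and HEM14 by 0.30 (SE 0.04) on the log2 scale against REF. Both were also lower in D126 than in D12, and none of the 9 genes passed the test between D12 and REF. Values here are the log2 expression levels as the authors normalized them, and a strain is given as mean ± SD with n = 3 arrays. Differences are log2 differences tested with limma, and a gene is called at an adjusted p under 0.05. In bulk RNA, fewer cells with a transcript and less transcript per cell cannot be told apart.

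The 2 called genes are 22.2% of the 9, and limma called 21.5% of all 5449 genes between D126 and REF, 12.9% lower and 8.59% higher. The share of the pathway that was called was thus close to that of the transcriptome. Between D126 and D12 the same count, 2 of 9, stood beside 22.0% of all genes called, 14.7% lower and 7.32% higher. The median difference of the 9 genes from REF was -0.04 in D126, where that of all genes was -0.0034, and 0.02 in D12, where that of all genes was 0.01. The 9 genes all had mean values above the background limit of 5.64, the lowest being HEM3 at 7.85.

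**Figure D1:**
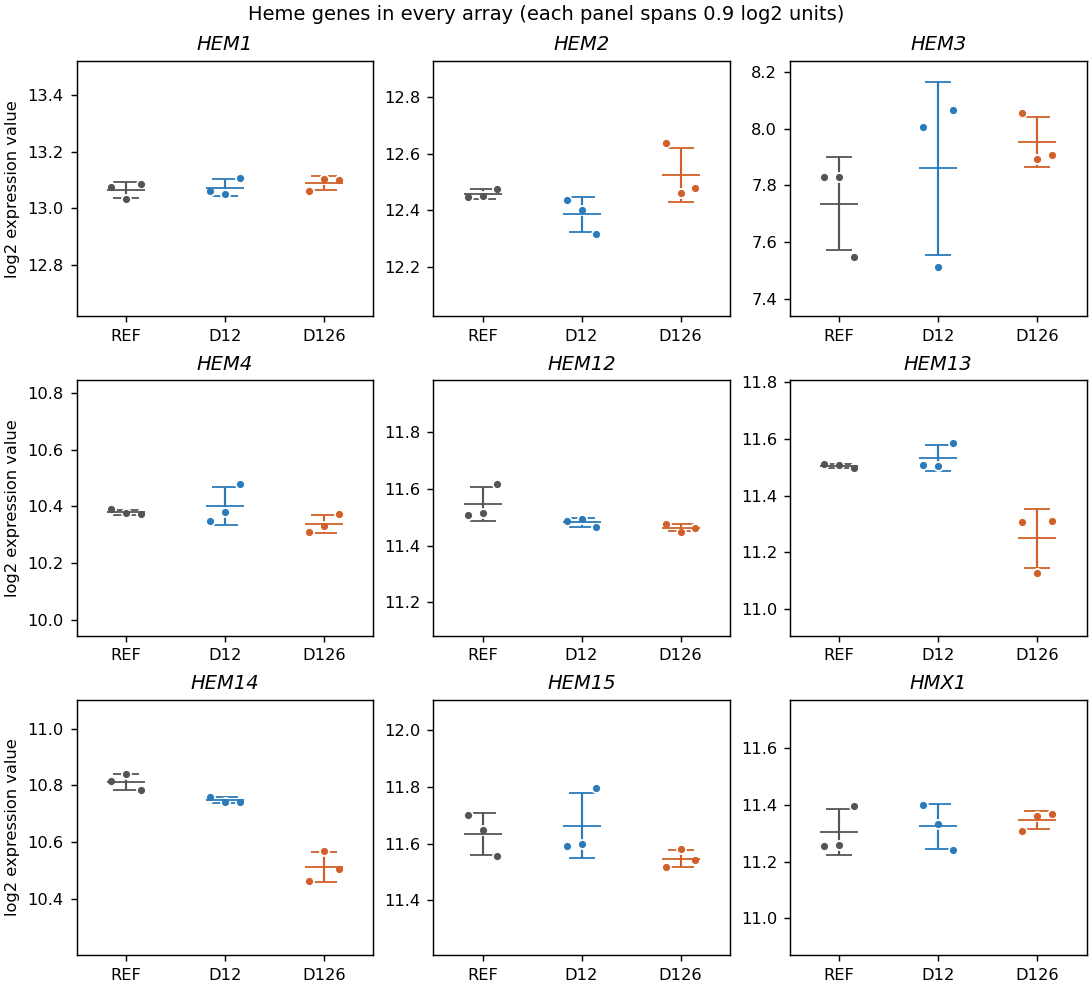
Log2 expression values of the 9 heme genes in each array (points), by strain, with the mean and SD of 3 arrays (bars); every panel spans the same range of log2 units. The D126 arrays of HEM13 and HEM14 lie below all REF and D12 arrays, while D126 and REF overlap for HEM1, HEM2, HEM4, HEM15 and HMX1.

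The arrays did not contribute evenly. On the first principal component of all genes the D126 arrays stood away from the rest (scores of 7.07 to 10.18, against -5.86 to -2.40), which held 54.7% of the variance. D12 replicate 3 lay at -8.92 on the second component, which held 18.4%. It was the array farthest from the D12 median for 7 of the 9 heme genes, as it was for 49.1% of all genes. REF replicate 3 was the farthest REF array for 7 of the 9, against 42.3% of all genes. D126 replicate 1 was the farthest D126 array for 59.8% of all genes and for 4 of the 9 heme genes, HEM1, HEM2, HEM3 and HMX1. For HEM13 and HEM14 it was D126 replicate 2. Markers of MATa cells rose in D126, with 6 of 6 called against REF, beside 8.59% of all genes called higher. Among them were BAR1 by 0.92, MFA2 by 0.62 and MFA1 by 0.49. Against D12 5 of the 6 were called, and AGA2 was not (0.06, adjusted p = 0.311). The summed level of the 6 markers, on the log2 scale, was 14.93 on each D126 array at 2 decimals and 14.47 to 14.57 in REF. The part of these markers in the results below was not tested. The STE2 call against REF was lost when replicate 2 or 3 of REF or of D126 was left out (highest adjusted p = 0.0715). Of 4 markers of MATalpha cells, the pheromone gene MF(ALPHA)1 rose against REF (0.52, to 6.63, with the background limit at 5.64) and none was called lower. STE3 differed by -0.12 (adjusted p = 0.0823). SAG1 differed by -0.16 (0.0946) and MF(ALPHA)2 by 0.09 (0.344), both named after their values were seen. Against D12, STE3 was called lower (-0.14, adjusted p = 0.0458), a call lost without any 1 of 7 of the arrays. The summed level was 10.73 to 10.84 in D126, 10.83 to 10.96 in D12 and 10.87 to 10.91 in REF.

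The pathway opens in the mitochondrion with HEM1, 5-aminolevulinate synthase, which joins glycine and succinyl-CoA. HEM1 varied least of the 9 genes. It read 13.07, 13.03 and 13.09 in REF, 13.06, 13.05 and 13.11 in D12, and 13.06, 13.10 and 13.10 in D126. The strains overlapped throughout. D126 differed from REF by 0.02 (95% interval -0.05 to 0.10, adjusted p = 0.63) and D12 by 0.01 (-0.06 to 0.08, adjusted p = 0.969).

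HEM2, HEM3 and HEM4 encode the cytosolic steps from 5-aminolevulinate to uroporphyrinogen III. HEM2, 5-aminolevulinate dehydratase, read 12.44, 12.45 and 12.48 in REF, 12.44, 12.40 and 12.32 in D12, and 12.64, 12.46 and 12.48 in D126. D126 replicate 1 was the highest array, and the D126 values all lay above the D12 values. The difference between D126 and D12 was 0.14 (95% interval 0.02 to 0.26), which had an unadjusted p of 0.0238 and did not pass the test after adjustment (adjusted p = 0.084). Against REF, HEM2 differed by 0.07 in D126 (adjusted p = 0.384) and by -0.07 in D12 (adjusted p = 0.846).

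HEM3, porphobilinogen deaminase, had the lowest mean value and the widest spread of the 9. Its residual SD, 0.21, lay at the 97.8th percentile of all genes. It read 7.83, 7.83 and 7.55 in REF, 8.01, 7.51 and 8.07 in D12, and 8.05, 7.90 and 7.91 in D126. REF replicate 3 and D12 replicate 2 were low, and the D126 values lay just above those of REF. D126 differed from REF by 0.22 (95% interval -0.10 to 0.53, adjusted p = 0.302). With the D126 and REF arrays alone and the replicate number as a block, the same difference passed the test (adjusted p = 0.0448). This setting, given below for other genes too, was chosen after seeing the data. HEM3 was not called in the 18 other alternative settings.

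HEM4, uroporphyrinogen III synthase, ranged from 10.37 to 10.39 in REF, from 10.35 to 10.48 in D12 and from 10.31 to 10.37 in D126. Its difference from REF was -0.04 in D126 (95% interval -0.13 to 0.05, adjusted p = 0.492) and 0.02 in D12 (-0.07 to 0.11, adjusted p = 0.926). D12 replicate 3 was the highest of the 9 arrays.

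HEM12, uroporphyrinogen decarboxylase, takes the pathway to coproporphyrinogen III. It read 11.51, 11.51 and 11.62 in REF, 11.49, 11.50 and 11.47 in D12, and 11.48, 11.45 and 11.46 in D126. Both desaturase strains lay below all REF arrays. The difference of D126 from REF, -0.08 (95% interval -0.16 to -0.0025), had an unadjusted p of 0.0446 and an adjusted p of 0.129, and D12 differed by -0.06 (adjusted p = 0.832).

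HEM13, coproporphyrinogen III oxidase, is the cytosolic step that consumes oxygen, and its gene is a textbook target of the hypoxic repressor Rox1. HEM13 read 11.51, 11.51 and 11.50 in REF and 11.51, 11.50 and 11.58 in D12. In D126 it read 11.31, 11.13 and 11.31. REF and D12 lay together, and all D126 arrays lay below them, replicate 2 the lowest. The mean was 11.51 ± 0.01 in REF, 11.53 ± 0.05 in D12 and 11.25 ± 0.10 in D126. Against REF, D126 stood at 0.837 of the linear level, a fall of 16.3% (95% interval of the log2 difference -0.37 to -0.14, adjusted p = 0.00793). Against D12 the log2 difference was -0.28 (SE 0.05, adjusted p = 0.0052). D12 differed from REF by 0.03 (95% interval -0.09 to 0.14, adjusted p = 0.937).

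HEM14, protoporphyrinogen oxidase, acts next, at the mitochondrial inner membrane. It read 10.81, 10.84 and 10.78 in REF, 10.76, 10.74 and 10.74 in D12, and 10.46, 10.57 and 10.50 in D126. The 3 strains did not overlap, REF being highest and D126 lowest. The means were 10.81 ± 0.03, 10.75 ± 0.01 and 10.51 ± 0.05. D126 stood at 0.812 of the REF level, a fall of 18.8% (95% interval of the log2 difference -0.38 to -0.22, adjusted p = 6e-04). Against D12 the log2 difference was -0.24 (SE 0.04, adjusted p = 0.00228). The step from REF to D12, -0.06 (95% interval -0.14 to 0.01), did not pass the test (adjusted p = 0.832).

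The calls of HEM13 and HEM14 did not rest on 1 array. Without each of the 9 arrays in turn, HEM13 differed between D126 and REF by -0.29 to -0.20 (adjusted p from 0.00669 to 0.0336) and HEM14 by -0.33 to -0.28 (adjusted p from 0.000707 to 0.00504). By a test for any difference among the 3 strains, 2 of the 9 genes were called, HEM13 (adjusted p = 0.00754) and HEM14 (adjusted p = 0.00111), beside 20.1% of all genes.

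HEM15, ferrochelatase, inserts iron into protoporphyrin IX and so completes heme. It read 11.70, 11.65 and 11.56 in REF, 11.59, 11.60 and 11.80 in D12, and 11.52, 11.58 and 11.54 in D126. D126 overlapped REF and lay below all D12 arrays, of which replicate 3 was the highest. The difference was -0.09 from REF (95% interval -0.22 to 0.05, adjusted p = 0.332) and -0.12 from D12 (-0.25 to 0.02, adjusted p = 0.196).

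**Figure D2:**
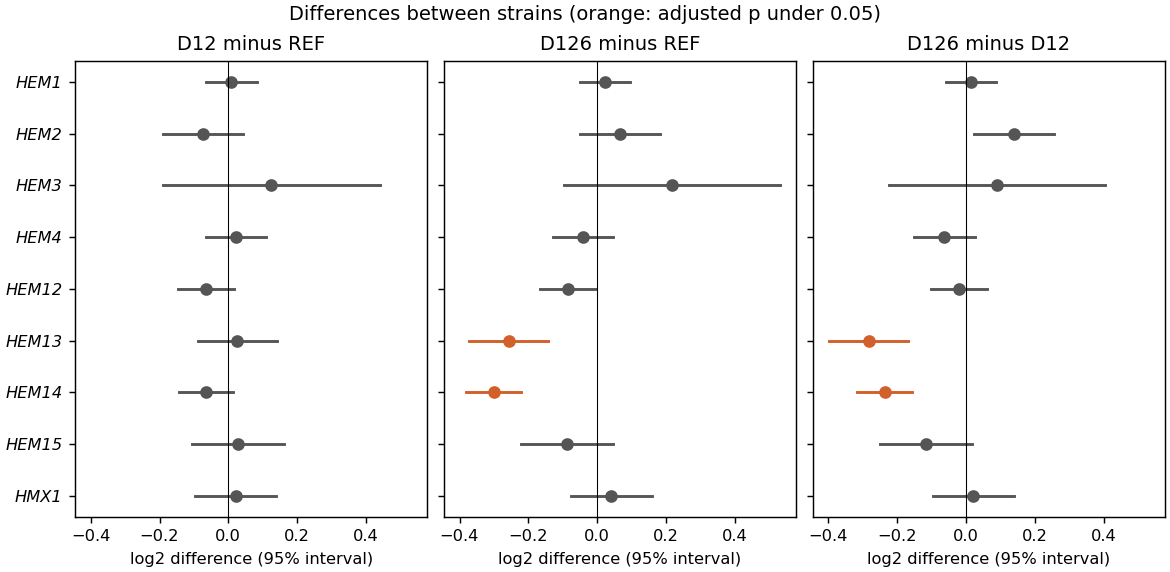
Log2 differences of the 9 heme genes (points) with 95% intervals (lines) for D12 minus REF, D126 minus REF and D126 minus D12. HEM13 and HEM14 lie below 0 in both comparisons of D126 (-0.26 and -0.30 against REF), and the interval of HEM3 is the widest.

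In D12 no gene of the pathway passed the test against REF. Of the 9 genes 0 were called by limma, 0 had an unadjusted p under 0.05, and over all genes 0 were called (326 at an unadjusted p under 0.05). The differences ran from -0.07 (HEM2) to 0.13 (HEM3), and the 95% intervals reached 0.07 (HEM1) to 0.31 (HEM3) to either side. Values of the strains did not overlap for HEM2, HEM12 and HEM14, 3 of the 9, beside 10.2% of all genes. For D126 and REF they did not overlap for HEM3, HEM12, HEM13 and HEM14 (47.9% of all genes), and for D126 and D12 for HEM2, HEM13, HEM14 and HEM15 (38.4%). Both comparisons with REF share the REF arrays, so they are set side by side only.

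**Figure D3:**
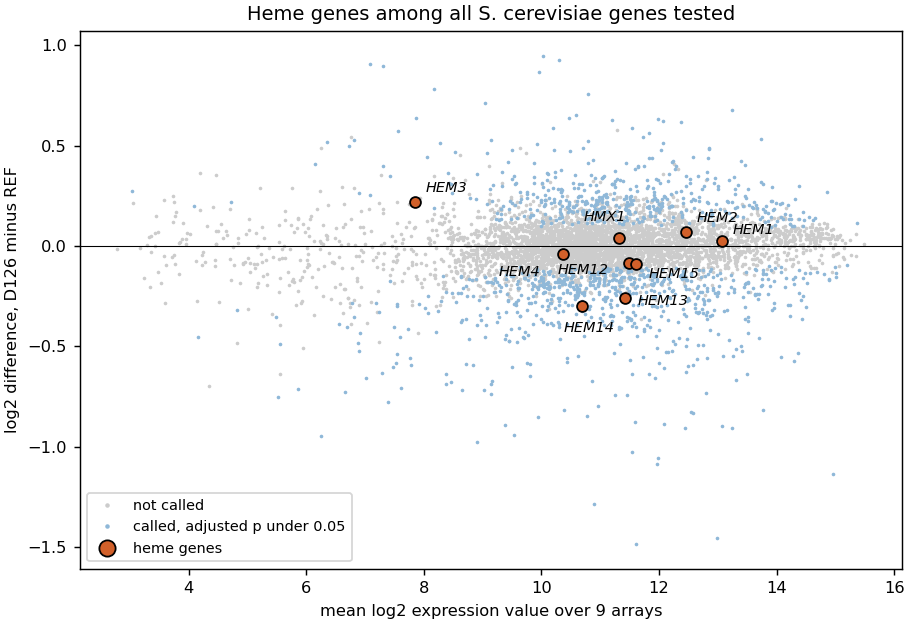
Log2 difference between D126 and REF against the mean log2 expression value over 9 arrays for all 5449 genes tested (small points; blue where called) and the 9 heme genes (large points). HEM13 and HEM14, at -0.26 and -0.30, lie among the called genes, whose median absolute difference was 0.23; the other heme genes lie among those not called.

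HMX1, the heme oxygenase of the endoplasmic reticulum, breaks heme down and releases its iron. It is a known target of Aft1, the activator of iron uptake genes. HMX1 read 11.26, 11.26 and 11.40 in REF, 11.40, 11.33 and 11.24 in D12, and 11.31, 11.36 and 11.37 in D126. The strains overlapped, and the spread lay within strains: REF replicates 1 and 2 and D12 replicate 3 were the lowest arrays. D126 differed from REF by 0.04 (95% interval -0.08 to 0.16, adjusted p = 0.605) and D12 by 0.02 (-0.10 to 0.14, adjusted p = 0.952).

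Among 5331 other genes above background, those whose values ran most like HMX1 over the 9 arrays were FTR1 (Pearson r = 0.97), the iron permease, POP1 (0.94), a subunit of RNase P, and FET3 (0.92), the multicopper oxidase that works with Ftr1. FTR1 and FET3 are Aft1 targets as well. FET3 read 10.39, 10.62 and 11.82 in REF, 11.83, 11.82 and 10.53 in D12, and 11.43, 11.57 and 11.56 in D126. FTR1 read 12.59, 12.62 and 13.06 in REF, 13.10, 12.98 and 12.46 in D12, and 12.78, 12.95 and 12.90 in D126. The 3 arrays low for HMX1 were thus the lowest for both iron uptake genes, with a range over 9 arrays of 1.44 log2 units in FET3, 0.64 in FTR1 and 0.16 in HMX1. These correlations describe arrays that share 1 normalization and carry no p.

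**Figure D4:**
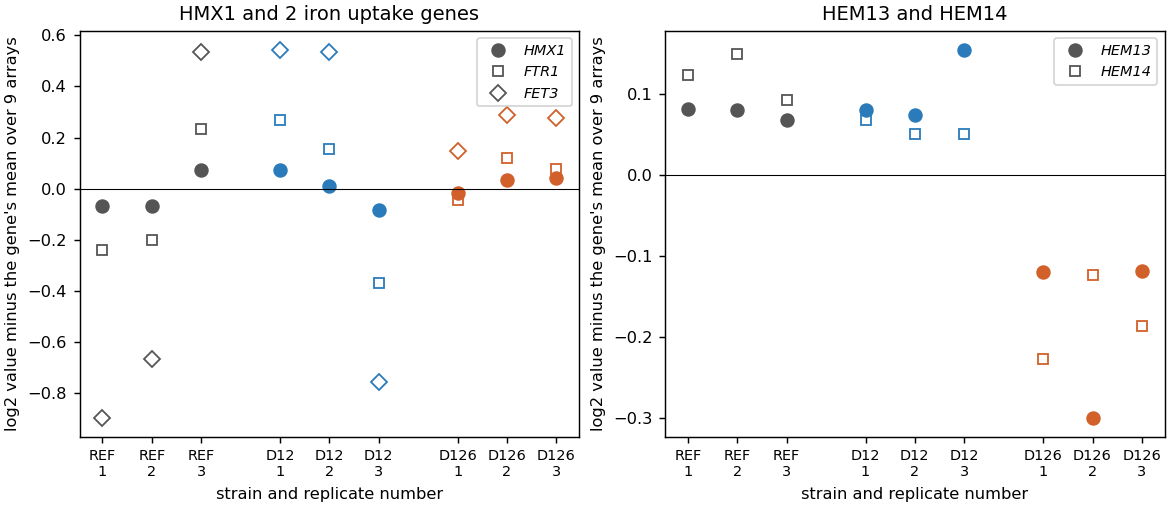
Log2 values minus the gene's mean over 9 arrays, by strain and replicate number; the vertical scales of the panels differ. Left, HMX1, FTR1 and FET3 are low together in REF replicates 1 and 2 and D12 replicate 3; right, HEM13 and HEM14 are low in the 3 D126 arrays.

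By the same measure the genes closest to HEM14 were RNR2 (r = 0.99), a small subunit of ribonucleotide reductase, MCH2 (0.99), a protein related to monocarboxylate transporters, and YMR253C (0.99), which has no standard name. They fell in D126 by 0.27, 0.72 and 0.43 against REF. Closest to HEM13 were OAF1 (0.98), a regulator of peroxisomal genes, AMA1 (0.96), a meiotic activator of the anaphase-promoting complex, and GID8 (0.96), a subunit of a ubiquitin ligase. AMA1 fell by 0.58 and GID8 fell by 0.27, while OAF1 differed by -0.05 (adjusted p = 0.244). For all 6 of these genes the D126 arrays lay below the other arrays, as they did for HEM13 and HEM14. The genes were picked for that likeness over the same arrays, so their low D126 values largely follow from the choice.

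Of 18 genes next to the heme genes in the R64 gene order, 12 were measured and 1 was called between D126 and REF. Of all genes, 21.5% were called in that comparison. The called neighbour was QRI5, a mitochondrial inner membrane protein gene beside HMX1, named here after its value was seen, which rose by 0.40 (adjusted p = 0.0102). The measured neighbours of HEM13 (NRG1 and RPC11) and of HEM14 (PRP22 and BUD25) were not called.

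Genes around the pathway moved in both directions in D126, and in D12 0 genes of any list below were called against REF. Beside the counts below, 12.9% of all genes were called lower and 8.59% higher between D126 and REF. Between D126 and D12 these shares were 14.7% and 7.32%. In the supply of succinyl-CoA and glycine to HEM1, 0 of 9 genes were called between D126 and REF (median 0.05). HEM25, the mitochondrial glycine carrier, differed by 0.18 (adjusted p = 0.0531) and GLY1, threonine aldolase, by -0.12 (adjusted p = 0.278). HEM25 passed the test in 8 of 19 alternative settings. They included leaving out D12 replicate 1 (adjusted p = 0.0423) or D12 replicate 3 (0.0203), quantile normalization (0.0113), arrays centred on medians (0.0412) and the D126 and REF arrays alone with the replicate block (0.0143). Across the alternatives tried, the adjusted p of HEM25 lay between 0.00414 and 0.163. Against D12, 0 of the 9 genes were called.

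Of 6 genes that handle heme, porphyrin or mitochondrial iron, 1 rose and 1 fell in D126 (median 0.01). DAP1, a heme-binding partner of the sterol demethylase Erg11, fell from 12.71 ± 0.09 in REF to 12.30 ± 0.11 (log2 difference -0.41, adjusted p = 0.00853). MTM1, a mitochondrial carrier, rose from 10.81 ± 0.07 to 11.08 ± 0.04 (adjusted p = 0.00778). Against D12, DAP1 fell by 0.28 and PUG1, a porphyrin transporter of the plasma membrane, fell by 0.25, while MTM1 rose by 0.20 and YFH1, frataxin, by 0.18. PUG1 differed from REF by -0.15 (adjusted p = 0.066, and 0.046 with both strains alone and the replicate block). The PUG1 call against D12 held without each array in turn but was lost with quantile normalization (-0.13, adjusted p = 0.0851) and with both strains alone and the replicate block (0.0502). YFH1 stood at 0.10 with array weights (adjusted p = 0.0575), and its call against D12 was also lost with both strains alone (0.0677). The DAP1 call against D12 was lost with arrays centred on medians (0.056), both strains alone (0.0739) and the replicate block in all 9 arrays (0.0626). That block in all 9 arrays also ended the MTM1 call against D12 (0.0503). Against D12, single arrays ended the calls of DAP1 (REF replicate 2, D12 replicates 1 and 2, D126 replicates 1 and 3), MTM1 (D12 replicates 2 and 3, D126 replicates 1 and 3) and YFH1 (REF replicate 2, D12 replicates 1 and 3, D126 replicate 1), with adjusted p of at most 0.123.

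Where heme is modified or attached, 1 of 7 genes rose and none fell against REF (median 0.07). This was YAH1, the mitochondrial ferredoxin of heme A and iron-sulfur cluster synthesis, which rose from 11.06 ± 0.07 to 11.37 ± 0.04 (log2 difference 0.31, adjusted p = 0.00213). YAH1 also rose against D12, by 0.21 (adjusted p = 0.013, and 0.0535 without D126 replicate 3). In the siroheme branch, which leaves the pathway at uroporphyrinogen III for sulfite reductase, 0 of 4 genes were called against REF, with MET5 at 0.08 and MET10 at 0.03. Against D12, MET5 rose by 0.12 (adjusted p = 0.0486), a call that was lost without any 1 of 8 of the arrays, D12 replicate 1 being the exception.

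Of 15 genes for proteins that bind heme or hold a cytochrome b5 domain, 2 rose and 3 fell in D126 against REF, with a median of -0.10. CTT1, the cytosolic catalase, fell by 0.74 (SE 0.08), CYB5, cytochrome b5, fell by 0.36 (SE 0.06) and ERG5, a cytochrome P450 of ergosterol synthesis, fell by 0.24 (SE 0.04). These 3 calls held without each array in turn (highest adjusted p = 0.0204, ERG5). The genes that rose, named after their values were seen, were CYC1, cytochrome c, by 0.21 and YHB1, flavohemoglobin, by 0.14. The CYC1 call was lost without REF replicate 2 or 3 (highest adjusted p = 0.0767). The YHB1 call was lost without any REF or D126 array or D12 replicate 1 (highest adjusted p = 0.128), and with the replicate block in all 9 arrays (0.0821). Against D12, 2 of the 15 rose and 3 fell, with CTT1 at -0.73, CYB5 at -0.30 and ERG5 at -0.18. In that comparison the calls of CTT1 and CYB5 held in every setting tried. YHB1 lost its call without D126 replicate 3 (adjusted p = 0.0605), and YHB1, CYC1 and ERG5 each lost it with all probe sets tested (0.0703, 0.0521 and 0.0563) and with both strains alone and the replicate block (0.103, 0.0749 and 0.1). YHB1 also lost it with both strains alone (0.0504).

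Among 9 regulators that respond to heme or oxygen, 1 rose and 1 fell in D126. HAP1, whose product is the heme-activated transcription factor, fell from 12.48 ± 0.03 in REF to 12.10 ± 0.09 (log2 difference -0.38, adjusted p = 0.000753). It fell by 0.28 against D12 (adjusted p = 0.00379). The HAP1 calls held without each array in turn (adjusted p of at most 0.0157). HAP3, a subunit of the CCAAT-binding activator of respiration genes, rose by 0.14 against REF (adjusted p = 0.0455), a call lost without any REF or D126 array or D12 replicate 2. Quantile normalization (adjusted p = 0.0553), arrays centred on medians (0.0514) and an intensity trend (0.0519) also ended the HAP3 call. ROX1, the hypoxic repressor, differed by -0.05 (adjusted p = 0.578) and was named after its value was seen.

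Of 8 other genes repressed by Rox1 in air, 0 were called against REF, and all 8 lay below 0 (median -0.12, against -0.0034 for all genes). The 8 were read on the same arrays, so their signs are not independent, and the list was not tested as a set. The largest differences were those of CYC7, the hypoxic cytochrome c isoform, at -0.19 (adjusted p = 0.134), and ANB1, the hypoxic form of translation factor eIF5A, at -0.14 (adjusted p = 0.165, and 0.029 with array weights). CYC7 passed the test with array weights (-0.31, adjusted p = 0.000684), without D126 replicate 1 (-0.29, adjusted p = 0.025) and with the D126 and REF arrays alone and the replicate block (adjusted p = 0.0456). Against D12, COX5B, the hypoxic subunit of cytochrome oxidase, fell by 0.24 (adjusted p = 0.0138) and was the 1 gene of this list called. The COX5B call was lost with quantile normalization (-0.12, adjusted p = 0.129), with all probe sets tested (0.0517) and with both strains alone and the replicate block (0.057). CYC7, ERG11 and OLE1 belong to this list and to that of heme proteins.

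Of 22 genes of the Aft1 iron regulon, 2 rose and none fell in D126 against REF (median 0.08), beside 8.59% of all genes called higher. They were FRE3, a ferric reductase (0.19, adjusted p = 0.0399), and ARN2, a siderophore transporter, which lay below the background limit (4.85 ± 0.08 in D126). Of the 22 differences 16 lay above 0 and 6 below. Between D12 and REF 20 lay above 0 and 2 below, and between D126 and D12 11 lay on either side. The lean above 0 was thus not particular to D126, and both comparisons with REF share the REF arrays. The largest difference of D126 from REF, that of FET3 at 0.58, was not called (SE 0.41, adjusted p = 0.349), with an SD of 0.77 in REF. The calls of FRE3 and ARN2 were both lost without REF replicate 1 or 2 or D126 replicate 3. REF replicate 3 and D126 replicate 2 also ended that of FRE3, and D126 replicate 1 that of ARN2 (adjusted p of at most 0.136). Quantile normalization (0.0721) and an intensity trend (0.0546) ended the FRE3 call. The replicate block in all 9 arrays (0.069) and the trend (0.177) ended the ARN2 call. Against D12, the copper chaperone gene ATX1 rose by 0.21 (adjusted p = 0.0499) and was the 1 gene called. That call was lost without REF replicate 3, any D12 array or D126 replicates 2 or 3, with adjusted p up to 0.147.

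**Figure D5:**
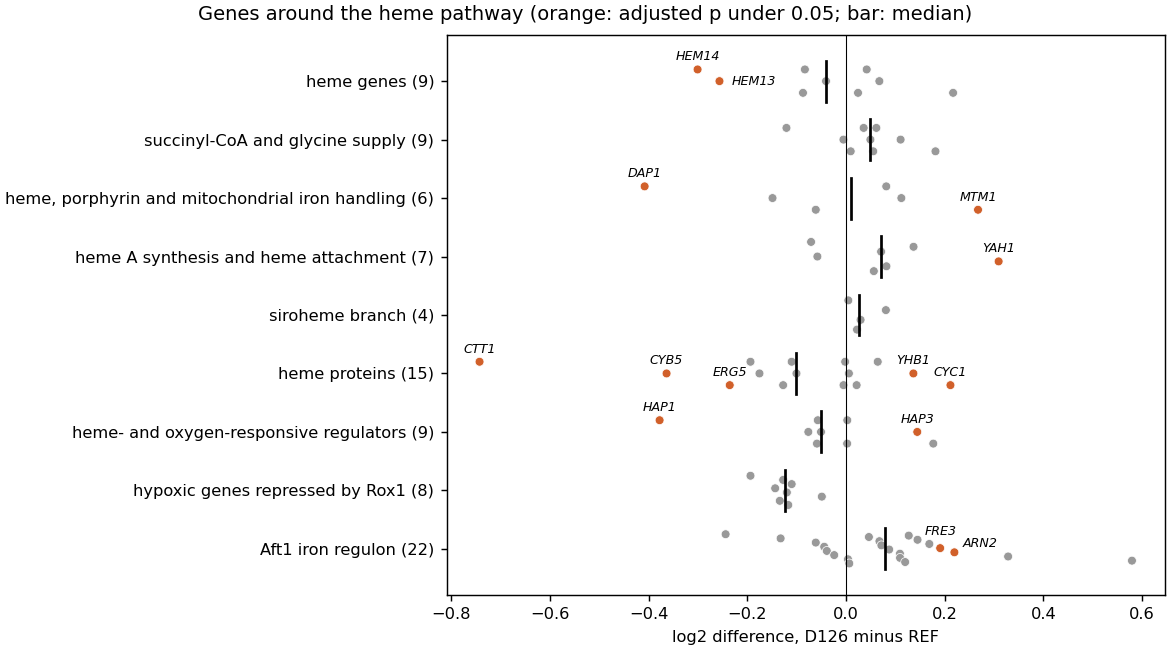
Log2 difference between D126 and REF of each measured gene (points; orange where called) in the heme genes and 8 lists around them, with the number of genes in brackets and the median of each list (bars). Called genes lie on both sides of 0, from CTT1 at -0.74 to YAH1 at 0.31, and all 8 hypoxic genes lie below 0 with none called.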

How the data were processed

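The deposited values are log2 expression values, 1 column per array, which the authors made with RMA and affy per the submitters' processing notes; the notes used here name no version. RMA draws every array to 1 distribution, which hides any change in the total RNA of a cell. Signals of single probes were not used here. Of 10928 probe sets, 7244 carry 1 gene in the platform annotation, 1 carries several and 3683 carry none. Matching by gene identifier to the R64 gene table gave 5498 probe sets of 5449 S. cerevisiae genes, with the brightest probe set kept per gene. The 95th percentile of the means of 1746 probe sets of genes outside that table, 5.64, served as the background limit, and 5332 genes lay above it.

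Strains were compared with limma 3.58.1 in R 4.3.3, in 1 linear model of all 9 arrays with strain as its term and empirical Bayes moderation. The fit had 6 residual and 3.10 prior degrees of freedom, the median SE of a difference was 0.048, and p-values were adjusted by Benjamini-Hochberg over the 5449 genes. The number of arrays limits the precision. The fit was tested on simulated data. Figures were drawn with matplotlib.

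Replicate numbers come from the sample titles, where their meaning is not explained. Deviations from the strain mean correlated by 0.13 to 0.22 between REF and D126 arrays of equal number, and by -0.23 to 0.05 between unequal numbers. The main fit had no block for any strain, and results with the block are given as alternatives to it. For D12 arrays the equal-number values were -0.34 to -0.08 against REF and -0.28 to -0.02 against D126, so the numbers did not pair D12 with either strain.

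All 9 heme genes are named. Of each other list, called members are named if 4 or fewer, otherwise the 3 with the largest differences, and 2 with the largest differences where none was called between D126 and REF. Likeness was the Pearson correlation over 9 arrays for HEM13, HMX1 and the heme gene with the smallest F-test p. The members and the lists were chosen with earlier results of these data known. Alternatives were other scalings, array weights, a replicate block, other feature sets, an intensity trend and leaving out each array. No promoter or protein sequence was used here.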

Additional observations from a re-analysis of the deposited data

How the results depend on the processing

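For the 9 heme genes, 27 differences were recomputed under 19 settings, 1 of them chosen after seeing the data (only the 2 strains compared, with the replicate block). Of 513 values, 496 kept their direction and their side of the threshold, 13 changed sign (none of them a called difference), 3 gained a call and 1 lost it. The cause of these changes was not tested. Where D126 minus REF had 2 heme genes called, array weights gave 4, adding HEM12 (-0.07, adjusted p = 0.0384) and HEM15 (-0.10, adjusted p = 0.0287), and leaving out 1 array gave 2 in every case. The replicate block with all 9 arrays kept HEM13 and HEM14 called (adjusted p = 0.0139 and 0.00271), as it did with the 2 strains compared alone (0.0149 and 0.00302), where HEM3 was the 1 heme gene to gain a call. For D126 minus D12, where arrays of equal number correlated negatively, that block left 1 heme gene called in place of 2. HEM14 then stood at -0.24 with an adjusted p of 0.0514. Over all genes, D126 minus REF had 1173 called, 2615 with array weights, 630 with all probe sets other than controls tested, 922 and 1603 with the block in all 9 or in 6 arrays, and 645 to 1539 without 1 array. D126 minus D12 had 1200, with 2057, 655, 780 with the 2 strains alone, 398 with the block added to these, and 683 to 1332 without 1 array. The test among 3 strains had 1096, with 2568, 583, and 538 to 1292 without 1 array. D12 minus REF had 0, 1 with quantile normalization, 1 with array weights, and 0 to 1 without 1 array. The sign changes of D12 minus REF were HEM1 (-0.0077 with arrays centred on medians, -0.0079 to 0.021 without 1 array), HEM3 (-0.11 with array weights), HEM4 (-0.016 to 0.049 without 1 array), HEM15 (-0.035 with array weights, -0.038 to 0.063 without 1 array) and HMX1 (-0.016 to 0.067 without 1 array). Those of D126 minus D12 were HEM3 (-0.084 to 0.19) and HMX1 (-0.021 to 0.058), both without 1 array. Among the named genes of other lists, testing all probe sets ended the D126 minus REF calls of HAP3, CYC1, YHB1, FRE3, ARN2, STE2 and AGA2 (adjusted p = 0.0505 for AGA2). It also ended the D126 minus D12 calls of YAH1, MET5, DAP1, MTM1, YFH1, CYC1, YHB1, ERG5, COX5B, ATX1 and STE3. The block with the 2 strains alone ended those same D126 minus D12 calls and those of PUG1 and STE2.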
